A study of Homo sapiens with 15 samples.

Results

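The 8 genes described here are the inhibitors of the transcription factor NF-kB and the feedback genes around A20: NFKBIA, NFKBIB and NFKBIE, NFKBIZ and BCL3, and TNFAIP3, TNIP1 and TNIP2. They were taken by gene symbol from a table of RNA-seq read counts with 26485 genes, and all 8 were among the 17243 genes that passed the filter on low counts. The counts came from ML1 and U937, human leukemia cell lines that the labels place under acute myeloid leukemia of the blood. In each line 3 libraries were from cells given diluent and 3 from cells given 10 nM prexasertib, an inhibitor of the checkpoint kinase CHK1, for 24 h. In U937 another 3 libraries were from cells given 10 nM prexasertib together with 350 nM LSN622666, a compound known here by its code name, and these are called the combination. Every group, diluent included, also had 5 µM Q-VD-OPh, a pan-caspase inhibitor, so each change was measured with caspases inhibited. No group had LSN622666 alone, and ML1 had no combination group. The deposited design asks which candidate regulators of tumor necrosis factor, itself a classical inducer and target of NF-kB, changed in their mRNA.

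In resting cells NF-kB dimers are held in the cytoplasm by IkB proteins. Signals such as tumor necrosis factor activate the IkB kinase complex, IkB is tagged and degraded, and the freed dimers enter the nucleus and switch on genes that include those of their own inhibitors. NFKBIA, NFKBIB and NFKBIE encode IkB alpha, beta and epsilon, the classical cytoplasmic inhibitors. NFKBIZ and BCL3 encode nuclear IkB-like proteins that bind NF-kB on DNA and can raise or lower transcription of its targets. TNFAIP3 encodes A20, a ubiquitin-editing enzyme that damps signaling upstream of the IkB kinase complex, and TNIP1 and TNIP2 encode the A20-binding adaptors ABIN1 and ABIN2. In myeloid cells this loop sets how long an inflammatory signal lasts.

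The sequence that NF-kB is known to bind was looked for next to the start sites of these genes, since members of the loop are textbook targets of the factor. The RefSeq promoter table on GRCh38.p14 held 10 entries for 7 of the 8 genes, and NFKBIE was not among them. The strict form of the kB motif, GGGA and TTCC with any 2 bases between them, was searched on both strands in the 250 bases before each start and was found for 5 of the 7 genes: NFKBIA, NFKBIB, NFKBIZ, TNFAIP3 and TNIP1. It was present in 1.401% of the 35116 promoter windows of the table and, counting every listed start, in 1.729% of its 27306 genes. The loose form, GGG and CC with any 5 bases between them, includes every strict match and was found for 7 of 7 genes and in 54.43% of all windows. TGANTCA, an AP-1 motif, was found at 1 start (NFKBIB, 47 to 41 bases before it) and in 6.573% of all windows, and TGACGTCA, the CRE motif, at 0 of the members' starts and in 1.646% of all windows. A match says only that these letters are in the window. BCL3, without a strict match in the window searched, changed more in both lines than NFKBIB and TNIP1, which have it, and a link between match and change was not tested. The windows before NFKBIA and before the first start of NFKBIZ are shown whole as examples, 5′ to 3′ on the strand of the gene. Capitals mark the strict kB match on either strand.

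NFKBIA, chr14:35404750-35404999, minus strand: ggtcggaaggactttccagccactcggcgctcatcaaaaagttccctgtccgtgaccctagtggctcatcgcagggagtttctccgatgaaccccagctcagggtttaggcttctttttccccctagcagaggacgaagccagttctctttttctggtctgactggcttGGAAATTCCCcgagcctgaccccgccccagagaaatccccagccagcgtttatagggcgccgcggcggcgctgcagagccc
NFKBIZ, first start, chr3:101827740-101827989, plus strand: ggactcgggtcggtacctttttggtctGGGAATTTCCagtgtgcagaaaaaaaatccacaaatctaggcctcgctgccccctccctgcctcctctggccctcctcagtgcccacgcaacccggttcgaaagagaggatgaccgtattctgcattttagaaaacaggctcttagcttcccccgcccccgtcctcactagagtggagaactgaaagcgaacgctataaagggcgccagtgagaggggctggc

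In NFKBIA the match lay 81 to 72 bases before the start (chr14:35404821-35404830), outside every GENCODE exon. In NFKBIZ it lay 223 to 214 bases before the start (chr3:101827767-101827776), also outside exons. The other matches are shown in windows of 30 bases. In TNFAIP3 a pair of NF-kB-like matches stood close together, and both are in capitals; the first is a strict match on the opposite strand and the other a loose one. In NFKBIB and TNIP1 the capitals mark the strict match.

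TNFAIP3, chr6:137867188-137867217, plus strand: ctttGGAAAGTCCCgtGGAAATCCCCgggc
NFKBIB, second start, match at chr19:38899941-38899950, plus strand: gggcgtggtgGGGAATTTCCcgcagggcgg
TNIP1, second start, match at chr5:151081067-151081076, minus strand: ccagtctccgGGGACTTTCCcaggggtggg

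The TNFAIP3 match began 67 bases before the RefSeq start and fell within the first exon that GENCODE gives the gene, whose annotated start lies farther upstream. The NFKBIB match, 28 to 19 bases before the second start, lay in the gene between GENCODE exons and had an overlapping match on the other strand 1 base on. The TNIP1 match, 42 to 33 bases before the second start, was in a GENCODE exon of TNIP1. No strict match was found for BCL3 or TNIP2. The BCL3 window (chr19:44748458-44748707) lay inside the gene that GENCODE gives, whose start at 44747705 is farther upstream. The sequence before that start was not searched.

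Library totals ran from 49011222 to 87301014 counts. Levels are given as CPM, read counts divided by the library size that edgeR's TMM factors give. The smallest sum of counts of a member over the 3 libraries of a group was 778, for BCL3 in ML1 with diluent. The labels do not say that replicates came from separate cultures, so p-values measure only the spread between these libraries, which may be technical. Between libraries of 1 group the correlation of log2 CPM was 0.982 to 0.9937. Prexasertib replicate 2 of U937 stood apart: its gene-wise response was 1.32 times that of the other pair of replicates (slope), against 0.835 and 0.717 for replicates 1 and 3. The slopes used genes whose mean log2 change in the other pair was at least 1 in either direction. For replicates 1 and 3 that pair includes replicate 2, so the 3 slopes are not independent. Results that rest on replicate 2 are given with and without it. All 12 myeloid marker genes were at 1 CPM or more in every group. In ML1 their summed level was 7097 to 9075 CPM with diluent and 6741 to 9376 with prexasertib, but single markers moved both ways: 6 rose (SPI1, CSF1R, LYZ, CSF3R, ITGAM and FCGR1A, LYZ from 514 to 3627 CPM) and 4 granule genes fell (MPO, ELANE, AZU1 and PRTN3, ELANE from 2647 to 1154 CPM). In U937 the sums were 2553 to 3165 CPM with diluent, 1499 to 2149 with prexasertib and 1892 to 2302 with the combination. There prexasertib left 3 markers lower (ELANE, from 1175 to 700 CPM, PRTN3 and CD33) and 1 higher (MPO, from 2.51 to 4.60 CPM), and with the combination 2 were higher than with prexasertib alone (CSF1R and CSF3R). Of 6 lymphoid markers 3 reached 1 CPM (sums of 5.41 to 25.2 CPM), and 7 markers of other cells summed to at most 2.15 CPM. The part of these marker changes in the members' changes was not tested.

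NFKBIA (chromosome 14, 35401511 to 35404749, minus strand, 2373 exon bases) rose with prexasertib in both lines. In ML1 it stood at 61.8, 55.0 and 47.8 CPM in diluent replicates 1, 2 and 3 and at 1032, 1348 and 978 CPM with prexasertib. The lowest prexasertib library was far above the highest diluent library. The change was 20.4-fold (log2 4.35 ± 0.27 SE, adjusted p = 7.8e-10, edgeR quasi-likelihood test). In U937 the gene started lower, at 19.9, 24.1 and 18.5 CPM, and reached 94.3, 151 and 90.6 CPM, with no overlap. This change was 5.37-fold (log2 2.43 ± 0.25 SE, adjusted p = 5.1e-06, edgeR). With the combination NFKBIA was at 27.1, 50.6 and 25.2 CPM, below every library with prexasertib alone and above every diluent library. These are bulk libraries, in which fewer cells making a transcript and less transcript per cell cannot be told apart.

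NFKBIE (chromosome 6, 44258166 to 44265788, minus strand, 2581 exon bases), for IkB epsilon, was the classical inhibitor with the least spread between libraries under prexasertib. It read 47.6, 44.2 and 34.0 CPM in ML1 with diluent and 202, 214 and 200 CPM with prexasertib, a 4.90-fold rise (log2 2.29 ± 0.15 SE, adjusted p = 1.2e-09, edgeR). In U937 the diluent libraries were already at 122, 133 and 111 CPM, and prexasertib brought them to 238, 245 and 257 CPM. The fold change in U937 was 2.02 (log2 1.01 ± 0.14 SE, adjusted p = 8.2e-05, edgeR). The level under prexasertib was thus higher in U937 than in ML1, without overlap, although its fold change was smaller there. The combination read 131, 184 and 131 CPM, below prexasertib alone and overlapping diluent.

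NFKBIB (chromosome 19, 38899700 to 38908893, plus strand, 2324 exon bases), for IkB beta, changed the least of the classical inhibitors. Its ML1 libraries were at 30.0, 31.5 and 26.5 CPM with diluent and at 67.6, 77.0 and 78.1 CPM with prexasertib, a 2.53-fold rise (log2 1.34 ± 0.17 SE, adjusted p = 3.5e-06, edgeR). The U937 libraries were at 33.8, 44.2 and 34.4 CPM with diluent, 43.9, 72.9 and 55.5 CPM after prexasertib and 33.2, 44.5 and 38.4 CPM with the combination. The lowest prexasertib library lay just under the highest diluent library, so these groups overlapped. The 1.53-fold rise (log2 0.62 ± 0.17 SE, adjusted p = 0.010, edgeR) lost its call without prexasertib replicate 2 (log2 0.38, adjusted p = 0.099) and without diluent replicate 3 (log2 0.52, adjusted p = 0.059). A stretch of 40 bases (1.72% of its exons) is shared with SIRT2 on the opposite strand, and the library kit does not mark strand.

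NFKBIZ (chromosome 3, 101827991 to 101861022, plus strand, 5902 exon bases), for the nuclear protein IkB zeta, was scarce with diluent and rose in both lines. In ML1 it read 9.42, 7.83 and 7.57 CPM with diluent and 175, 86.0 and 97.0 CPM with prexasertib, where replicate 1 was the high library and all 3 were above diluent. The rise was 14.4-fold (log2 3.85 ± 0.35 SE, adjusted p = 1.9e-07, edgeR). The U937 libraries read 5.02, 4.46 and 4.77 CPM with diluent, then 37.1, 71.0 and 30.0 CPM with prexasertib, a 9.68-fold rise (log2 3.28 ± 0.35 SE, adjusted p = 1.2e-05, edgeR). In U937 replicate 2 was the high one, and without it the log2 change was 2.79 (adjusted p = 5.9e-06). The combination read 8.63, 14.8 and 7.66 CPM, between diluent and prexasertib alone without overlap with either.

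BCL3 (chromosome 19, 44747705 to 44760044, plus strand, 3242 exon bases), the other nuclear IkB-like gene, was at 4.63, 3.85 and 3.21 CPM in ML1 with diluent and at 100, 84.2 and 84.5 CPM with prexasertib. The libraries of each group stayed close, and the rise was 23.0-fold (log2 4.52 ± 0.29 SE, adjusted p = 9.4e-10, edgeR). In U937 it went from 6.88, 5.29 and 3.74 CPM to 25.3, 25.2 and 19.2 CPM, without overlap and 4.36-fold (log2 2.12 ± 0.26 SE, adjusted p = 2.3e-05, edgeR). With the combination it was at 11.7, 10.3 and 5.10 CPM, where replicates 1 and 2 lay above all diluent libraries and replicate 3 among them. BCL3 shares 65 exon bases (2.01%) with the microRNA gene MIR8085 on its own strand.

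TNFAIP3 (chromosome 6, 137867188 to 137883312, plus strand, 5051 exon bases), for A20, had the largest fold change of the 8 genes in both lines. In ML1 it was barely expressed with diluent, at 4.92, 5.77 and 5.24 CPM, and was at 905, 871 and 739 CPM with prexasertib. The rise was 158-fold (log2 7.30 ± 0.37 SE, adjusted p = 2.3e-10, edgeR) and ranked 146th from the top among the 17243 genes tested. The U937 libraries stood at 13.1, 26.8 and 17.9 CPM with diluent and at 221, 316 and 192 CPM with prexasertib, 12.6-fold higher (log2 3.66 ± 0.31 SE, adjusted p = 1.8e-06, edgeR). The combination read 32.7, 70.6 and 32.3 CPM, with every library above diluent and below prexasertib alone. TNFAIP3 shares 95 exon bases (1.88%) with the antisense gene AL357060.1, and reads there cannot be assigned to a strand.

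TNIP1 (chromosome 5, 151029945 to 151093577, minus strand, 5793 exon bases), for ABIN1, was abundant in every group and its libraries lay close together. ML1 went from 81.9, 88.4 and 87.8 CPM with diluent to 253, 247 and 253 CPM with prexasertib, a 2.92-fold rise (log2 1.54 ± 0.12 SE, adjusted p = 1.1e-08, edgeR). U937 went from 48.3, 59.8 and 49.1 CPM to 62.5, 81.7 and 75.1 CPM, without overlap but only 1.39-fold (log2 0.48 ± 0.12 SE, adjusted p = 0.0064, edgeR). Without prexasertib replicate 2 this was a log2 change of 0.37 at the limit of the call (adjusted p = 0.049). The combination, at 50.2, 60.1 and 53.1 CPM, overlapped diluent.

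TNIP2 (chromosome 4, 2741648 to 2756376, minus strand, 2686 exon bases), for ABIN2, separated the lines. ML1 went from 70.1, 77.8 and 60.4 CPM with diluent to 147, 134 and 172 CPM with prexasertib, 2.17-fold higher (log2 1.12 ± 0.15 SE, adjusted p = 9.6e-06, edgeR). In U937 the 3 groups overlapped, at 40.3, 56.1 and 47.0 CPM with diluent, 48.0, 62.7 and 56.4 CPM after prexasertib and 42.9, 57.2 and 54.0 CPM with the combination. The log2 difference between prexasertib and diluent in U937 was 0.22 (95% interval -0.10 to 0.54, adjusted p = 0.28, edgeR), so no change was shown and one of up to 0.54 was not excluded by the interval.

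**Figure D1:**
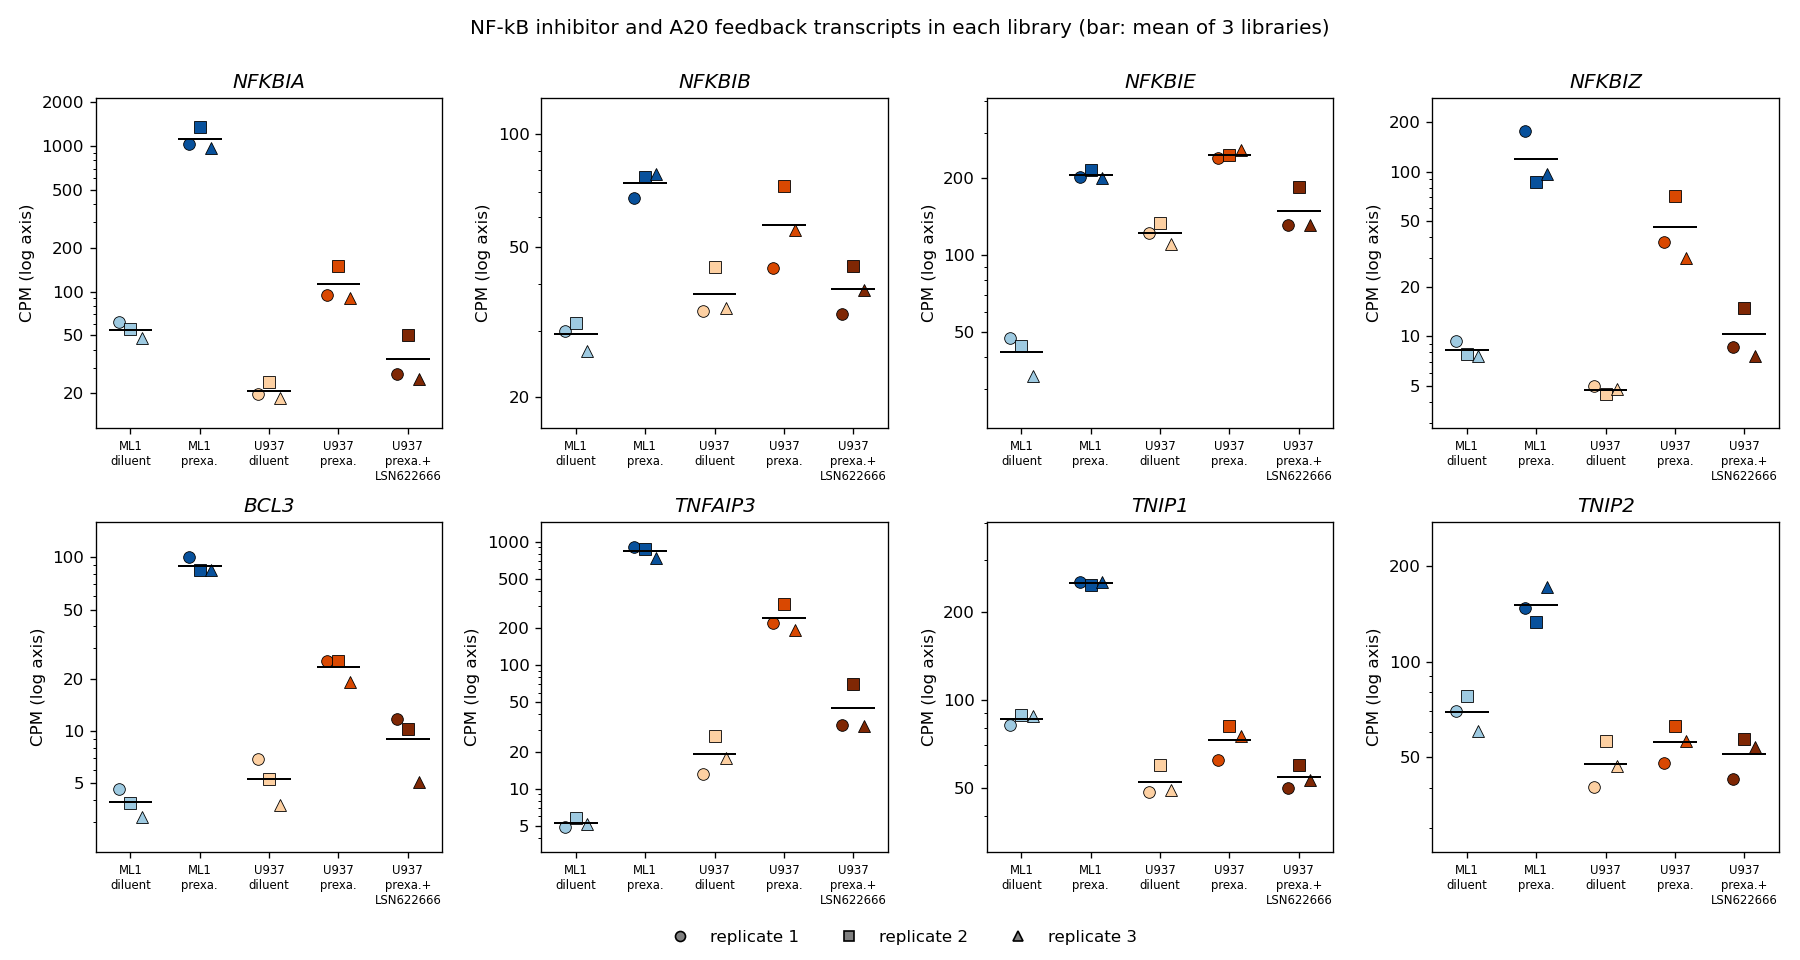
CPM (log axis) of each of the 8 genes in the 15 libraries; marker shapes give the replicate number and bars the mean of 3 libraries. The prexasertib libraries of ML1 lie above those of ML1 with diluent in all 8 panels, and the combination libraries of U937 lie below prexasertib alone without overlap in NFKBIA, NFKBIE, NFKBIZ, BCL3, TNFAIP3 and TNIP1.

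Prexasertib was followed by higher levels of 8 of 8 genes in ML1, where 25.3% of all tested genes were called higher at an adjusted p under 0.05, and of 7 of 8 in U937, where 18.3% were. No member was called lower in either line by edgeR or DESeq2, and no fitted log2 change was below 0 (12.8% of tested genes were called lower in U937 and 23.5% in ML1). The median log2 change of the 8 genes was 3.07 in ML1 and 1.57 in U937, beside medians over all tested genes of 0.02 and -0.00. In ML1 the prexasertib libraries were above all diluent libraries for each of the 8 genes (30.0% of tested genes), and in U937 for 6 of them, all but NFKBIB and TNIP2 (24.0% of tested genes). In both lines TNFAIP3 had the largest log2 change and TNIP2 the smallest. NFKBIZ, BCL3 and NFKBIA took the places next to TNFAIP3 in both lines, led by BCL3 in ML1 and by NFKBIZ in U937.

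The response was smaller in U937 than in ML1 for 7 genes by a test of the difference itself, where 12.3% of tested genes had a smaller or more negative change in U937. The median of the 8 differences was -1.17 on the log2 scale, against 0.03 over all tested genes. TNFAIP3 differed most, its log2 change being 3.64 ± 0.42 (SE) lower in U937 (log2 difference -3.64, adjusted p = 7.9e-06, edgeR), followed by BCL3 at -2.40 ± 0.36 (adjusted p = 8.5e-05) and NFKBIA at -1.92 ± 0.34 (adjusted p = 0.00039). NFKBIE at -1.28, TNIP1 at -1.06, TNIP2 at -0.90 and NFKBIB at -0.72 were also called, NFKBIB with the largest adjusted p (0.030), and its call was lost in 7 of the 12 fits that left out 1 library (adjusted p of 0.050 to 0.078 there). NFKBIZ was the exception: its difference was -0.58 with a 95% interval of -1.54 to 0.38 (adjusted p = 0.40, edgeR). That interval depended on prexasertib replicate 2 of U937, without which the NFKBIZ difference was -1.07 (adjusted p = 0.047).

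**Figure D2:**
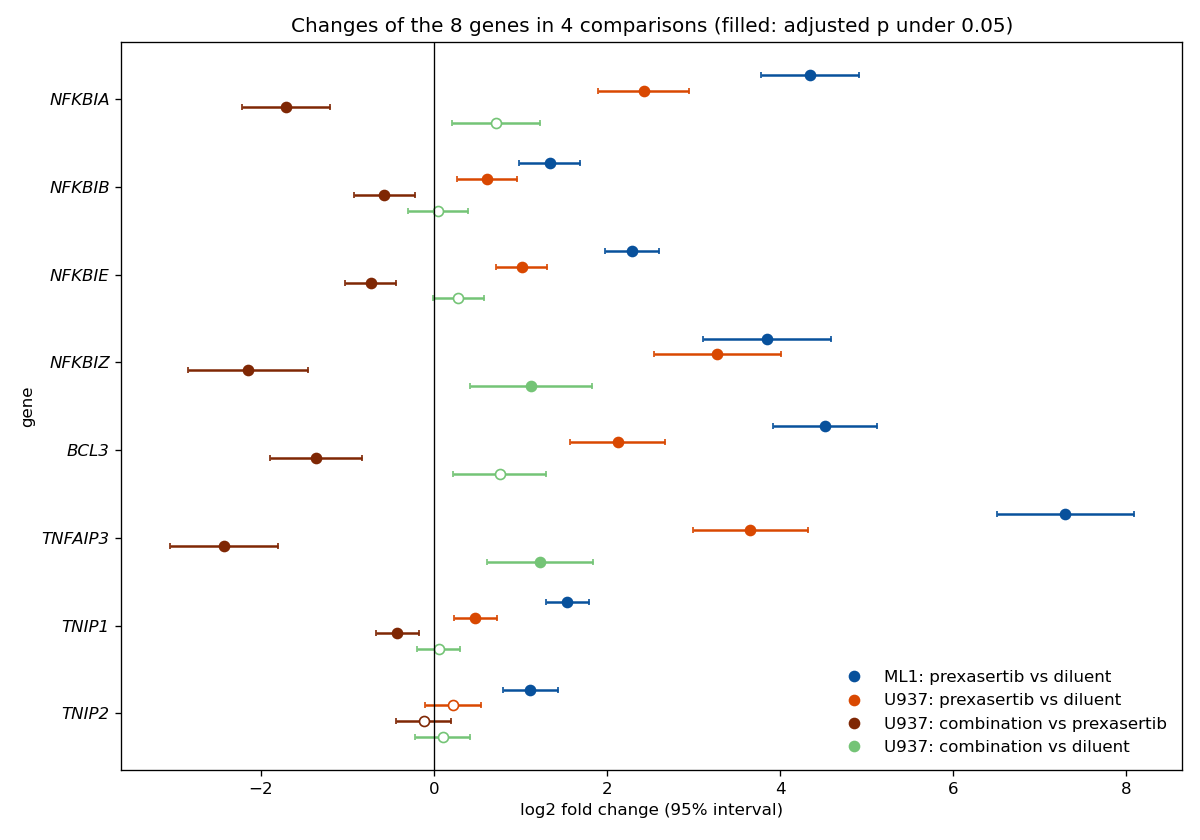
Log2 fold change of each gene with its 95% interval in 4 comparisons (prexasertib against diluent in ML1 and in U937, then the combination against each of those U937 groups); filled points have an adjusted p under 0.05. TNFAIP3 has the largest shift, from 7.30 in ML1 to 3.66 in U937, and every point of the combination against prexasertib lies below 0, with TNIP2 open at -0.12.

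Adding LSN622666 to prexasertib in U937 was followed by lower levels of 7 of 8 genes than prexasertib alone, where 17.1% of all tested genes were called lower. No member was called higher by edgeR or DESeq2, and all 8 fitted differences were below 0 (11.9% of tested genes were called higher). The median log2 difference of the 8 genes was -1.05, beside 0.01 over all tested genes. TNFAIP3 was at 0.186 times its level with prexasertib alone (log2 -2.43 ± 0.30 SE, adjusted p = 4.3e-05, edgeR), NFKBIZ at 0.225 times (log2 -2.15 ± 0.33, adjusted p = 0.00025) and NFKBIA at 0.306 times (log2 -1.71 ± 0.24, adjusted p = 0.00011). BCL3 was at 0.389 times (log2 -1.36 ± 0.25, adjusted p = 0.00081) and NFKBIE at 0.603 times (log2 -0.73 ± 0.14, adjusted p = 0.0012). For these 5 genes and TNIP1 no combination library reached the lowest library of prexasertib alone, a separation that 23.4% of tested genes showed in this direction. TNIP1 (log2 -0.42 ± 0.12, adjusted p = 0.012) lost its call without prexasertib replicate 2 (adjusted p = 0.071) or combination replicate 1 (adjusted p = 0.057). NFKBIB (log2 -0.57 ± 0.17, adjusted p = 0.016, groups overlapping) lost it without prexasertib replicate 2 (log2 -0.36, adjusted p = 0.12), combination replicate 1 (adjusted p = 0.077) or combination replicate 3 (adjusted p = 0.050). TNIP2 differed by -0.12 with a 95% interval of -0.44 to 0.20 (adjusted p = 0.60). With no group given LSN622666 alone, an effect of the compound by itself cannot be told apart from an effect on the response to prexasertib.

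Against diluent the combination left 2 genes higher, TNFAIP3 and NFKBIZ, where 6.88% of tested genes were called higher, and 0 lower (4.11% were). DESeq2 also called 0 lower, and all 8 fitted differences were above 0. TNFAIP3 was 2.35-fold above diluent (log2 1.23 ± 0.29 SE, adjusted p = 0.014, edgeR) and NFKBIZ 2.18-fold (log2 1.12 ± 0.33 SE, adjusted p = 0.040, edgeR). The TNFAIP3 call was lost without diluent replicate 3 (adjusted p = 0.058) or combination replicate 2 (log2 0.76, adjusted p = 0.054), and the NFKBIZ call in 5 of the 6 fits that left out a library of these groups (adjusted p of 0.074 to 0.13), the exception being combination replicate 3. NFKBIA (log2 0.72 ± 0.24, adjusted p = 0.061) and BCL3 (log2 0.76 ± 0.26, adjusted p = 0.062) narrowly missed the call in edgeR and were called in DESeq2 (adjusted p = 0.031 and 0.032). The log2 differences of NFKBIE (0.28), TNIP2 (0.10), TNIP1 (0.06) and NFKBIB (0.05) had intervals that included 0. The combination libraries of NFKBIA, NFKBIZ and TNFAIP3 were above all diluent libraries, a separation shown by 17.8% of tested genes. The comparisons among the 3 U937 groups share libraries, so their values are given side by side only.

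In diluent alone the lines had different levels of these transcripts. U937 was higher than ML1 for 2 genes, NFKBIE and TNFAIP3 (32.0% of tested genes were called higher), and lower for 4, NFKBIA, TNIP1, TNIP2 and NFKBIZ (29.4% were called lower). NFKBIE was 2.91-fold higher in U937 (log2 1.54 ± 0.14 SE, adjusted p = 4.5e-08, edgeR) and TNFAIP3 3.62-fold higher (log2 1.86 ± 0.30 SE, adjusted p = 5.1e-05), while NFKBIA was at 0.380 times its ML1 level (log2 -1.40 ± 0.24 SE, adjusted p = 7.5e-05). TNIP1 (log2 -0.72) and TNIP2 (log2 -0.54) were lower by less. The NFKBIZ call (log2 -0.80 ± 0.33, adjusted p = 0.046) was lost when any 1 of the 6 diluent libraries was left out (adjusted p of 0.065 to 0.12). BCL3 (log2 0.45, adjusted p = 0.14) and NFKBIB (log2 0.35, adjusted p = 0.074) were not called. TNFAIP3 rose most with prexasertib in ML1 and was furthest below its U937 level with diluent, but both values use the ML1 diluent libraries. Of the genes next in rise in ML1, BCL3 had no called difference with diluent (95% interval -0.10 to 1.00), and NFKBIA was higher in ML1. A link between diluent level and rise was not tested.

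The order of the 5 groups differed from gene to gene. TNFAIP3 had 5 levels without overlap of neighbours: ML1 with prexasertib (838 ± 87.8 CPM, SD, n = 3), U937 with prexasertib (243 ± 64.7), the combination (45.2 ± 22.0), U937 with diluent (19.3 ± 6.96) and ML1 with diluent (5.31 ± 0.426). NFKBIZ and BCL3 shared the first 3 places of this order, and below them the NFKBIZ combination libraries overlapped ML1 with diluent and the BCL3 combination libraries overlapped U937 with diluent. NFKBIA had ML1 with diluent (54.9 ± 7.04 CPM) in the third place, overlapping the combination (34.3 ± 14.1). TNIP1 and TNIP2 had both ML1 groups on top, the ML1 diluent libraries of TNIP1 (86.0 ± 3.60 CPM) lying above all U937 libraries with prexasertib (73.1 ± 9.72). NFKBIE alone had U937 with prexasertib first (247 ± 9.50 CPM). NFKBIB had neighbours that overlapped down to the gap between U937 with diluent (37.5 ± 5.85 CPM) and ML1 with diluent (29.3 ± 2.58).

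Levels of different genes were compared per length, as CPM per kilobase of GENCODE exon sequence. The length joins all annotated exons of a gene and need not be that of the transcript made. Levels and ratios set between genes here and below depend on it. Among the classical inhibitors, NFKBIE was the most abundant in U937 with diluent (47.3 CPM per kb, against 16.1 for NFKBIB and 8.78 for NFKBIA), whereas NFKBIA led in ML1 (23.1, against 16.2 for NFKBIE and 12.6 for NFKBIB). With prexasertib NFKBIA reached 472 CPM per kb in ML1, against 79.6 for NFKBIE and 32.0 for NFKBIB. In U937 it reached 47.2, still below NFKBIE at 95.6. As a share of the sum of the 3 classical inhibitors per kb, NFKBIA went from 44.5% ± 1.27 (SD, n = 3) to 80.7% ± 2.16 in ML1. In U937 it went from 12.1% ± 0.380 to 27.8% ± 5.13, and was 15.9% ± 2.82 with the combination. None of these groups overlapped, and the two-sided exact permutation p of 0.1 for each comparison is the smallest that 3 against 3 unpaired libraries can give. Here and below, the permutation left out the pairing by replicate number that the data show between prexasertib and the combination. The sum itself was 52.0 CPM per kb in ML1 with diluent and 583 with prexasertib. In U937 it was 72.2 with diluent, 168 with prexasertib and 88.7 with the combination, the last overlapping diluent (exact permutation p = 0.3).

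The inhibitor was also set against the subunit it holds. NFKBIA per RELA, the p65 subunit, was 1.79 ± 0.227 per kb in ML1 with diluent and 23.5 ± 5.49 with prexasertib. In U937 the ratio was 0.884 ± 0.0379 with diluent, 3.79 ± 0.720 with prexasertib and 1.30 ± 0.428 with the combination, and no pair of these groups overlapped (exact permutation p = 0.1 each). A20 and its adaptors moved unequally. TNFAIP3 per TNIP1 was 0.0707 ± 0.00354 in ML1 with diluent, so that the adaptor's transcript far exceeded that of A20, and 3.83 ± 0.418 with prexasertib. In U937 it was 0.414 ± 0.102 with diluent, 3.81 ± 0.781 with prexasertib and 0.931 ± 0.361 with the combination. The ratio under prexasertib was thus close in the lines (3.35 to 4.10 in ML1 and 2.93 to 4.43 in U937, overlapping), although the levels of TNFAIP3 and of TNIP1 were each higher in ML1. TNFAIP3 per TNIP2 followed the same order, at 0.0410 and 3.01 in ML1 and 0.210, 2.31 and 0.460 in U937.

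**Figure D3:**
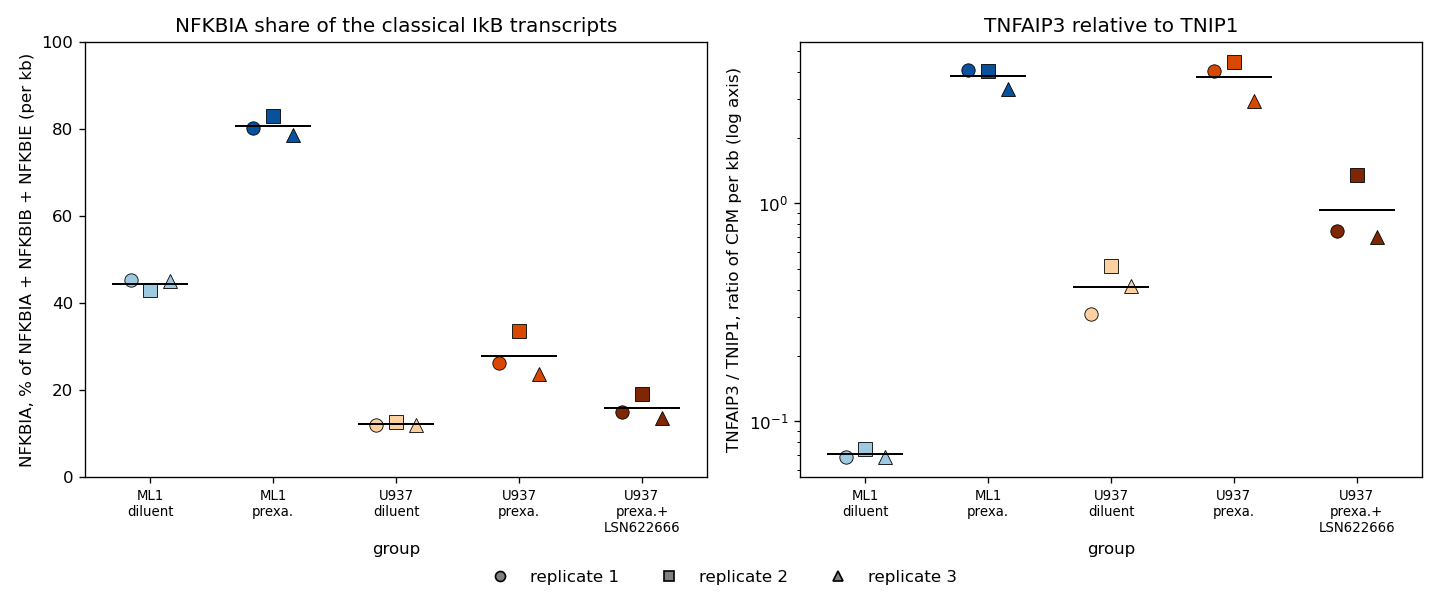
Ratios per kb of exon in each library and their group means: NFKBIA as a percent of the 3 classical inhibitors, and TNFAIP3 per TNIP1 on a log axis; marker shapes give the replicate number. NFKBIA takes 80.7% in ML1 and 27.8% in U937 with prexasertib, while TNFAIP3 per TNIP1 is 3.83 and 3.81 in those groups.

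In U937 the number 2 library was the highest of its group for 6 of 8 genes with diluent, for 6 of 8 with prexasertib and for 7 of 8 with the combination, beside 35.2%, 38.2% and 31.3% of all tested genes. In ML1 no number was the highest for more than 4 of 8 genes. These counts are a description, with no test. The ratio of the highest to the lowest library was largest for NFKBIZ in U937 with prexasertib (2.37), BCL3 with the combination (2.29) and TNFAIP3 with the combination (2.18), and smallest for TNIP1 in ML1 with prexasertib (1.03). With prexasertib replicate 2 left out, TNFAIP3 still rose in U937 by log2 3.40 (adjusted p = 1.8e-06), NFKBIA by 2.12 (adjusted p = 1.4e-05), BCL3 by 2.03 (adjusted p = 0.00012) and NFKBIE by 0.99 (adjusted p = 0.00037). In the same fit the combination was still below prexasertib for TNFAIP3 (log2 -2.19, adjusted p = 0.00010), NFKBIZ (-1.69, adjusted p = 0.00048), NFKBIA (-1.43, adjusted p = 0.00055), BCL3 (-1.30, adjusted p = 0.0040) and NFKBIE (-0.73, adjusted p = 0.0038).

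The members stand in a pathway, and its other genes were counted from 4 lists. Each count is to be read against the share of all tested genes called in that direction, which was 25.3% higher and 23.5% lower in ML1, 18.3% and 12.8% in U937, and 11.9% and 17.1% for the combination against prexasertib. Of the 5 subunit genes of NF-kB, 5 rose with prexasertib in ML1 and 4 in U937, and 4 were lower with the combination than with prexasertib alone. NFKB2 and RELB, the noncanonical pair, moved most (log2 4.89 and 6.07 in ML1, 2.45 and 2.73 in U937, -1.38 and -1.83 with the combination against prexasertib). NFKB1 rose by 1.12 in ML1 and 0.55 in U937, and RELA by 0.65 and 0.31. NFKB1 and REL were also lower with the combination than with prexasertib alone (log2 -0.57 and -0.65). The 4 genes of these U937 comparisons were not the same: REL was not called higher with prexasertib, and RELA was not called lower with the combination. In U937 the count of 4 fell to 2 without prexasertib replicate 2 and without diluent replicate 1 or 3, and in the combination comparison it fell to 2 without prexasertib replicate 2 or combination replicate 3.

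Of 9 further inhibitors and partners of A20 or the IkB family, 6 rose and 2 fell in U937, 6 rose and 1 fell in ML1, and 6 were lower with the combination than with prexasertib alone. With so few genes, the 2 and 1 that fell are not set apart from the 12.8% and 23.5% of all tested genes called lower in these lines. CYLD, a deubiquitinase that acts beside A20, rose by log2 1.86 in ML1 and 1.62 in U937 and was lower by log2 -1.54 with the combination, and SPATA2, the adaptor of CYLD, followed it at 0.95, 0.70 and -0.72. TNIP3, for the remaining ABIN protein, was near 0 outside 1 group: it had 17 counts over the U937 diluent libraries (0.0930 CPM), 213 with prexasertib (1.07 CPM) and 52 with the combination (0.232 CPM). Its log2 changes of 3.45 and -2.19 rest on these few counts. RNF11, a subunit of the A20 complex, rose by log2 1.00 in ML1. Its U937 means were 25.5 CPM with diluent, 38.2 with prexasertib and 22.1 with the combination (log2 -0.79 against prexasertib alone). TAX1BP1, an adaptor of A20, fell in U937 (log2 -0.55, adjusted p = 0.011, edgeR). OTULIN, which removes linear ubiquitin, fell in ML1 (log2 -0.54). It was also the other partner called lower in U937, with means of 63.3 CPM with diluent and 48.9 with prexasertib. NFKBID, for the nuclear protein IkBNS another nuclear IkB-like protein, had other values than NFKBIZ and BCL3: it rose in U937 with prexasertib (log2 0.71, adjusted p = 0.016) and with the combination against diluent (log2 0.71, adjusted p = 0.036), and combination and prexasertib differed by 0.00 (95% interval -0.43 to 0.43). NFKBID was singled out after its values were seen. The count of 6 rising genes in U937 was 3 without prexasertib replicate 2 and 3 without diluent replicate 3, and that of 2 falling genes was 1 without prexasertib replicate 2 or diluent replicate 2.

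The 25 genes on the activating list are the IkB kinase complex itself and genes that act before it, beside it or after it. In U937 they were called at shares near the background. There 6 of 25 rose and 3 fell, beside 18.3% and 12.8% of all tested genes (median log2 change 0.01). In ML1 12 rose and 3 fell (median 0.26), and with the combination 5 were higher and 8 lower than with prexasertib alone (median -0.16). In ML1 MYD88, the adaptor of Toll-like receptors, rose by log2 1.72, MAP3K8, a kinase of the pathway, by 3.08, IKBKE by 1.63 and RBCK1, part of the linear ubiquitin ligase, by 1.34. In U937 MAP3K14, the kinase of the noncanonical branch, rose by 1.16, RIPK1 by 0.79 and TRAF6 by 0.74, while BTRC, which marks IkB for degradation, fell by 0.60 on the log2 scale. With the combination MAP3K8 was lower by log2 -1.21, MAP3K14 by -0.91 and TAB2 by -0.65 than with prexasertib alone, and RBCK1 was higher by 0.50. Without U937 prexasertib replicate 2 the U937 counts were 3 and 1, and the combination counts 3 higher and 4 lower. Without combination replicate 1 those were 3 higher and 5 lower, and 3 were higher without prexasertib replicate 3 or combination replicate 3.

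Of 26 known NF-kB target genes 22 were tested. CXCL3 was tested only because of the libraries with prexasertib alone, and the other 21 passed the filter on low counts without them. In ML1 22 of the 22 rose and in U937 19 did (21 and 18 without CXCL3), with 0 lower in either by edgeR or DESeq2 and no log2 change below 0. With the combination 19 were lower than with prexasertib alone (18 without CXCL3). CXCL8 (log2 4.60), BIRC3 (3.45), ICAM1 (1.92) and PLAU (1.11) had the smallest p-values of the list in U937, and in ML1 they were ICAM1 (6.38), CCL5 (4.22), BCL2A1 (5.45) and CXCL3 (7.62). With the combination CXCL8 was lower by log2 -3.49, BIRC3 by -2.40, ICAM1 by -1.93 and PLAU by -1.10. TNF itself rose by log2 5.65 in ML1 and 2.61 in U937 and was lower by log2 -1.27 with the combination (adjusted p = 0.020, edgeR). The median change of the 22 tested targets, CXCL3 included, was 4.84 in ML1, 2.18 in U937 and -1.69 for the combination against prexasertib. The medians of the 8 inhibitor and A20 genes were 3.07, 1.57 and -1.05.

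Against diluent the combination left 5 targets higher: CXCL8, TNF, LTA, BIRC3 and CFLAR. LTA was near 0, with 13 counts over the U937 diluent libraries and 123 with the combination. Also higher were 1 subunit gene (NFKB2), 1 partner (NFKBID) and 2 activating genes (RNF31 and RBCK1), beside 6.88% of all tested genes. Of 25 activating genes and of 9 partners these are shares near that background. These counts rested on single libraries and settings: the 5 targets became 8 with the replicate block, 3 in a fit to U937 alone and 2 with no low-count filter, and 1 without diluent replicate 2 or combination replicate 1, 2 without diluent replicate 3 or combination replicate 2 and 3 without diluent replicate 1. NFKBID lost its call without any 1 of diluent replicates 2 and 3 and combination replicates 1 and 2, and the 2 activating genes became 0 without diluent replicate 2 or 3 or combination replicate 1. For the difference between the lines 14 targets (13 without CXCL3), 5 activating genes and 2 subunit genes had a smaller change in U937, beside 12.3% of all tested genes. Of the 9 partners 0 did by edgeR or DESeq2 (1 at an unadjusted p under 0.05 in edgeR). Without U937 prexasertib replicate 2 those were 8 activating genes, 4 subunit genes and 1 partner. DESeq2 called 8 activating genes, and the fit with the replicate block 8 activating genes, 5 subunit genes and 1 partner.

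**Figure D4:**
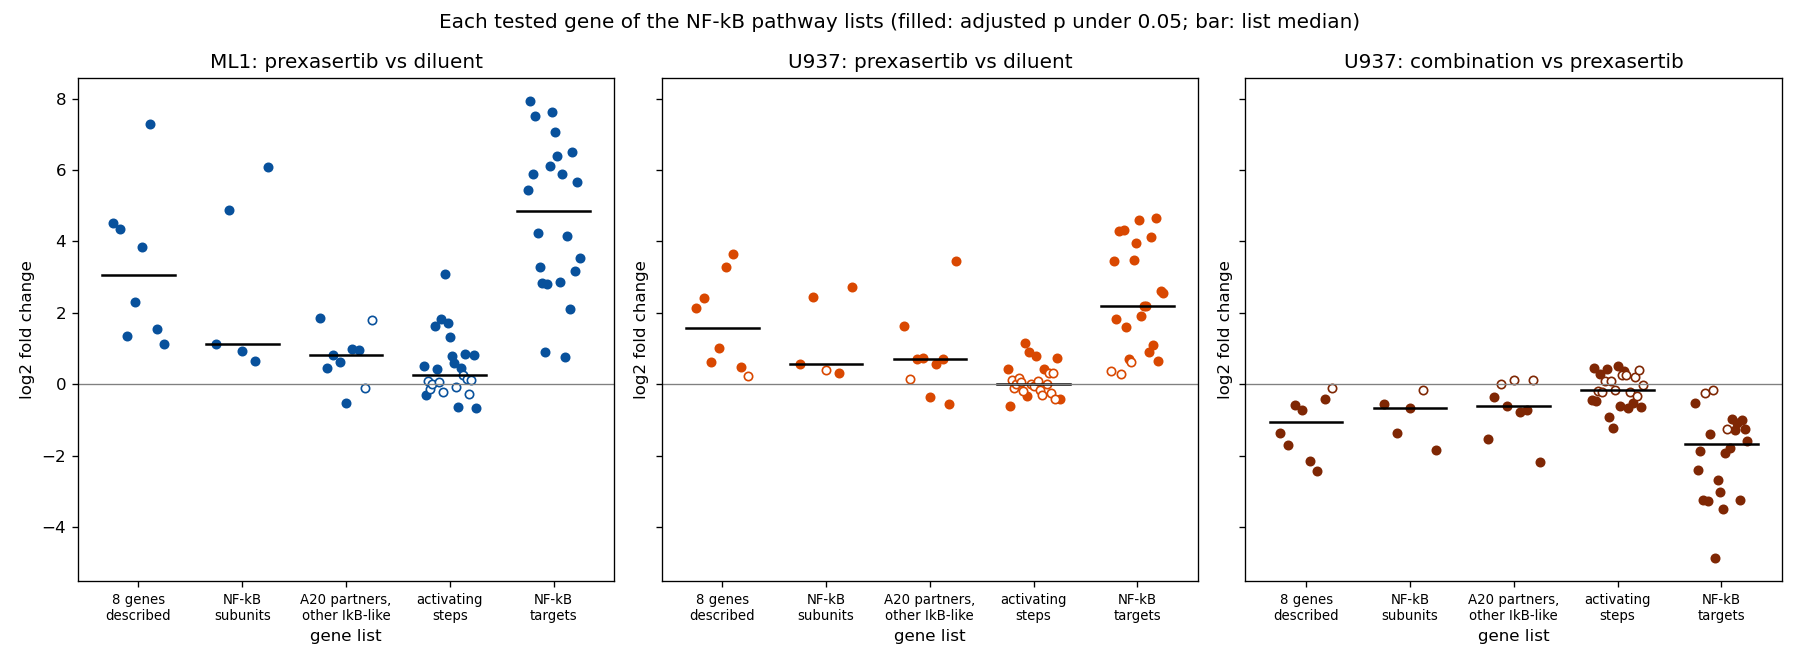
Log2 fold change of each tested gene of the 5 lists (the 8 genes, subunits, partners, activating genes and targets) in 3 panels, prexasertib against diluent in ML1, the same in U937, and the combination against prexasertib, with 1 point a gene, filled at an adjusted p under 0.05, and bars at the list medians. Among activating genes points lie on both sides of 0, whereas of the targets 22 of 22 are called higher in ML1 and 19 of 22 in U937 (21 of 21 and 18 of 21 without CXCL3).

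The genes whose pattern over the 15 libraries was most like that of each member were taken by the smallest root mean square difference of centred log2 CPM among 10924 genes with a mean of at least 5 CPM. TNFAIP3 was nearest to BIRC3 (0.512), RELB (0.536) and the complement gene C3 (0.545), beside its own SD of 2.62. NFKBIA was nearest to BATF2 (0.400), FOS (0.431) and IRF7 (0.440), none of them on the NF-kB lists used here. PPP1R15A, which reverses the translation block of the stress response, was nearest to both NFKBIZ (0.436) and BCL3 (0.398). TRAF1 (0.441) and SERTAD1 (0.464) followed for NFKBIZ, and CSRNP1 (0.411) and JUNB (0.417) for BCL3. NFKBIE was nearest to DNAJB2 (0.253), GPR146 (0.270) and PLAU (0.278). The members with smaller SDs over the libraries (0.51 for NFKBIB, 0.83 for TNIP1 and 0.63 for TNIP2) had smaller distances: GET4 (0.162), SLC38A7 (0.173) and ZNF622 (0.185) for NFKBIB, TREX1 (0.150), RAB24 (0.164) and SNX11 (0.166) for TNIP1, and USF1 (0.157), DNAJB11 (0.167) and ANKFY1 (0.173) for TNIP2. These likenesses are descriptions over libraries that share lines and treatments.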

How the data were processed

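RNA-seq covered 15 libraries of ML1 and U937 cells. The deposited table holds raw counts of reads for each gene, which the authors had not normalized. Per the labels' protocols, RNA was column-purified (RNeasy) and libraries came from Illumina's TruSeq RNA kit v2, a kit that leaves strand unmarked. Per the submitters' processing notes, the tools were featureCounts 1.4.6 of Subread, Bowtie2 2.2.6 and TopHat2 2.0.14, with hg38. The annotation, strand setting and mate counting were not given in the sources used here.

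The analysis used edgeR 4.0.16 in R 4.3.3: filterByExpr, TMM, 1 mean per group over all 15 libraries, and the robust quasi-likelihood F test (10 residual degrees of freedom and a median biological coefficient of variation of 0.163). P-values were adjusted by Benjamini-Hochberg over 17243 genes, and genes were called at an adjusted p under 0.05. There were 6 comparisons. The fit was tested on data simulated for prexasertib against diluent in U937. Every simulated group had the mean levels of U937 with diluent, and 50 genes per fold size were changed in the prexasertib libraries. The fit recovered 15 of 50 changes of 1.5-fold, 49 of 50 of 2-fold and 50 of 50 of 4-fold and of 8-fold. Of its 169 calls 2.96% were false. A change of 1.5-fold or less can thus go uncalled. In the data 3160 genes were called higher and 2209 lower in this comparison, so the simulated shares may not hold there. Positions and exon lengths came from GENCODE v29 (GRCh38) and promoters from RefSeq (GRCh38.p14). Intervals cover only the spread between these libraries as fitted. Reads carry no molecular identifiers.

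The members and lists were chosen with earlier results of these data known. Always named were the 8 members and TNF. From each list the 4 genes with the smallest p were named in the prexasertib comparisons and in the combination against prexasertib. For each member with a called log2 change of at least 1, the 3 genes most like it were named. All members met this in at least 1 comparison, and other genes were named for some of the counts of 5 or fewer. Alternatives were DESeq2 1.42.0, other scaling factors, other filters, a fit to 1 line, a replicate block and leaving out each library. Same-numbered libraries of prexasertib and the combination deviated from their group means together (correlations of 0.409, 0.370 and 0.384, all over 0.1), so the numbers pair these 2 groups by the data. In the other pairs of groups at least 1 correlation was under 0.1.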

Additional observations from a re-analysis of the deposited data

Results flagged for a closer look

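The change with prexasertib differed between the lines by a test of the difference itself (edgeR) for 7 of the 8 genes, each with a smaller rise in U937 than in ML1. The log2 differences were -1.92 for NFKBIA, -0.72 for NFKBIB, -1.28 for NFKBIE, -2.40 for BCL3, -3.64 for TNFAIP3, -1.06 for TNIP1 and -0.90 for TNIP2. The diluent level of TNFAIP3 was higher in U937 (19.3 ± 6.96 CPM, SD, n = 3) than in ML1 (5.31 ± 0.426), while those of NFKBIA, TNIP1 and TNIP2 were lower in U937. The part of these starting levels in the differences was not tested.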

How the results depend on the processing

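Leaving out each library in turn gave refits of the members' changes of which 296 kept direction and call, 27 lost the call, 5 gained it and 8 changed sign. These 8 concern differences that were not called as reported. For the combination against diluent, NFKBIB ran from log2 -0.068 to 0.156 and was below 0 without U937 diluent replicate 1 (-0.045) or 3 (-0.044) or combination replicate 2. TNIP1 ran from -0.023 to 0.136, below 0 in the same 3 refits (-0.020, -0.023 and -0.022). TNIP2 ran from -0.026, without diluent replicate 1, to 0.209. For the combination against prexasertib TNIP2 ran from -0.207 to 0.0029, the last without combination replicate 1. Of the refits under other settings 309 kept the call, 9 gained it, 2 lost it and 0 changed sign.

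The count of members higher with the combination than with diluent was the least stable, at 2 as reported, 4 in DESeq2 and with upper-quartile factors, 1 with no low-count filter, and 0 to 4 over the left-out libraries (0 without diluent replicate 3 or combination replicate 2, 1 without diluent replicate 2 or combination replicate 1, 4 without combination replicate 3). With the replicate block it was 4, adding NFKBIA (adjusted p = 0.0025) and BCL3 (adjusted p = 0.0022), and in the diluent comparison between lines the block gave 4 members higher in place of 2, adding NFKBIB (adjusted p = 0.021) and BCL3 (adjusted p = 0.038). The block changed no other member's call, also not in the paired groups. The other counts of members stayed within 1.5 times of those reported.

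Upper-quartile factors moved the median of all genes by 0.106 (log2) in the combination against diluent, and the share of called genes that were higher from 62.6% to 86.6%. Over all genes, called counts moved by more than 1.5 times in some settings. Those lower with the combination than with diluent were 709 as reported, 1452 in DESeq2, 2065 with the block, 218 in U937 alone, 273 with the stricter filter and 236 with upper-quartile factors, and those higher 1186 and, with the block, 2218. Leaving out a library brought those lower to 179 without combination replicate 1, 247 and 295 without diluent replicate 2 and 3, and 391 without combination replicate 3. Those higher became 425, 463 and 557 without the first 3 of these libraries, so the 6.88% and 4.11% given as background for this comparison rest on them. In U937 with prexasertib 2209 were lower, 3682 with the block and 1449 with the stricter filter, and against prexasertib the combination had 2048 higher and 3239 with the block. Without U937 prexasertib replicate 2 the U937 counts were 1803 higher and 881 lower, in place of 3160 and 2209, and the combination against prexasertib had 1105 higher and 1794 lower. The cause of these shifts was not tested.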
